A study of Mus musculus with 2 samples.

Results

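Laminins are large cross-shaped proteins of the basement membrane, the thin sheet of matrix on which the epithelium rests and which wraps smooth muscle cells and lines vessels. Each laminin is a trimer of 1 α, 1 β and 1 γ chain, and each chain is the product of its own gene. In the gut the α2 and α4 chains are known mainly from mesenchymal and vascular basement membranes, the α5 chain from epithelial and vascular ones, and the chains α3 and β3 are part of laminin-332, which ties epithelial cells to the matrix through the integrin α6β4. The genes described here are Lama2, Lama3, Lama4, Lama5, Lamb1, Lamb2, Lamb3, Lamc1 and Lamc3, taken by their exact symbols, 9 of 32285 genes in the count tables. The chain gene Lama1 was not among them and is given only where a value of these 9 is set beside it.

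The data were single-nucleus RNA sequencing counts from frozen colon of mice after chronic colitis. Mice 8 to 12 weeks old had received 2% dextran sodium sulfate (DSS), which injures the colonic mucosa, in the drinking water for 3 days followed by 4 days of recovery, in 4 cycles, and tissue was taken at day 28. WT was wild type littermates and KO was Ncr1cre+ Hif-1α fl+/fl+, in which Cre driven by the Ncr1 (NKp46) promoter deletes the floxed Hif-1α alleles in NKp46-expressing innate lymphoid cells, so that the epithelial, mesenchymal and endothelial cells described here are not the targeted ones. Each genotype was 1 library made from a pool of 3 animals, and both groups had received DSS, so neither the spread between animals nor an uninjured colon can be read from these data.

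After filtering, 4884 WT and 4702 KO nuclei remained, with a median of 2058.5 and 4197 unique molecular identifiers (UMIs, counted RNA molecules) per nucleus. The 2 libraries shared 3 cell barcodes. Hif1a had 2284 UMIs in WT and 4699 in KO, which does not check the genotype labels because the deletion is limited to NKp46+ cells, and Ncr1 had 1 and 0 UMIs. All levels below are UMIs of a gene per 1000000 UMIs of the class (CPM), the ranges are exact 95% Poisson intervals, and these cover counting error only. No test between the genotypes was possible with 1 library each. A gene was called different between libraries where its CPM differed at least 1.5-fold with intervals that did not overlap and at least 50 UMIs in both libraries together. It was called higher in a class of nuclei where its CPM was at least 2-fold that of all other nuclei, without overlap of the intervals, in both libraries. Classes were named "-like" from marker genes other than those described here. Their markers were higher than in all other nuclei in both libraries for 10 of 10 in fibroblast-like, 10 of 10 in smooth muscle-like, 10 of 10 in blood endothelial-like, 7 of 7 in lymphatic endothelial-like, 11 of 12 in surface absorptive enterocyte-like and 7 of 8 in crypt base stem-like nuclei. The same markers had named the classes, so these counts were largely set by the naming and are no separate check. Fibroblast-like nuclei made up 4.12% of WT and 2.34% of KO nuclei, smooth muscle-like nuclei 6.16% and 2.91%, and surface absorptive enterocyte-like nuclei 10.5% and 17.5%.

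The genes lie apart from one another in the mouse genome (GRCm38). Lama2 spans chr10:26980036-27619758 on the minus strand, a length of 639.723 kb, and Lama4 lies on the same chromosome at chr10:38965515-39110188. Lamb1 lies at chr12:31265234-31329644 and Lamb2 at chr9:108479736-108490530, both on the plus strand. Lama5 lies at chr2:180176373-180225859 on the minus strand and Lamc3 at chr2:31887291-31946539 on the plus strand. Lamc1 lies at chr1:153218922-153332786 on the minus strand, and Lamb3 at chr1:193207699-193343878 on the plus strand. The annotated span of Lamb3 also holds Hsd11b1 and G0s2 on the opposite strand, which had 28 and 36 (Hsd11b1) and 13 and 16 (G0s2) UMIs in WT and KO.

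RefSeq promoter sequences (GRCm38.p6) were at hand for 5 of the 9 genes. The 250 bases before the start are shown for 3 genes that were highest in fibroblast-like nuclei and for Lamb3, which was highest in surface enterocyte-like nuclei, so that the upstream sequence of the stromal and the epithelial chains can be set side by side. Each is written 5′ to 3′ on the strand of the gene. The RefSeq starts of Lama2, Lamb1 and Lamb3 used here lie inside the spans given above. Capitals mark GC boxes, the letters GGGCGG or, for the other strand, CCGCCC.
Lama2, chr10:27616943-27617192, minus strand: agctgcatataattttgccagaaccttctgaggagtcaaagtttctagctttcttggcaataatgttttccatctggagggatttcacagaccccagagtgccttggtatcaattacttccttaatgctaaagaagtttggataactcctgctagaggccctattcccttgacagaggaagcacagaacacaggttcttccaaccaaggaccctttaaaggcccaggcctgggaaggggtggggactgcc
Lamb1, chr12:31265043-31265292, plus strand: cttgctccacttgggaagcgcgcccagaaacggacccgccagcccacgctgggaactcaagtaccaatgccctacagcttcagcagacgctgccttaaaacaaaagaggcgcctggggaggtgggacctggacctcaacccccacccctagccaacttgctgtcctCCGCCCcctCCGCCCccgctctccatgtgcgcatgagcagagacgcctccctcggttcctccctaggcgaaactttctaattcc
Lama5, chr2:180225860-180226109, minus strand: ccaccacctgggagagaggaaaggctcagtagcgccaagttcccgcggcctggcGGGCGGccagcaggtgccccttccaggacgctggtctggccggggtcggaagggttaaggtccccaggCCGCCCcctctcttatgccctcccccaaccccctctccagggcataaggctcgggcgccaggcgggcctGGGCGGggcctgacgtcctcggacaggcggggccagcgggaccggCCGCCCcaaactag
Lamb3, chr1:193301744-193301993, plus strand: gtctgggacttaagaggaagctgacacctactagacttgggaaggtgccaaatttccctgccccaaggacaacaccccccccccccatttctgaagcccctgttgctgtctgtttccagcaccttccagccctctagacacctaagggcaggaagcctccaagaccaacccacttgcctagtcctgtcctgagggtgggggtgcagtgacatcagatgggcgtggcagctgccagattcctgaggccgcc
The Lama5 sequence held 4 GC boxes at a GC content of 72.4% and the Lamb1 sequence 2 at 62%. The Lama2 and Lamb3 sequences held 0, at 47.2% and 58.8%. Of 32851 promoter windows of this length, 32.7% held a GC box on either strand and the median GC content was 52.4%. Neither TATAAA nor the AP-1 letters TGANTCA, which 12.4% and 6.75% of all windows held on either strand, occurred in any of the 5 promoters. By these letters the 3 stromal sequences differed from one another, and no binding was measured.

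The 9 genes fell into a small epithelial group and a larger stromal one. In 7 of the 9 the class with the highest CPM was the same in both libraries, among classes of at least 50 nuclei in each. The share of all genes with the same leading class was not computed, so this count has no background. Lama3 and Lamb3 were highest in surface absorptive enterocyte-like nuclei. Lama2, Lama4, Lama5, Lamb1 and Lamc1 were highest in fibroblast-like nuclei. When smaller classes of at least 20 nuclei were admitted, lymphatic endothelial-like nuclei took the lead for Lama4. Lamb2 and Lamc3 had too few UMIs for an order.

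**Figure D1:**
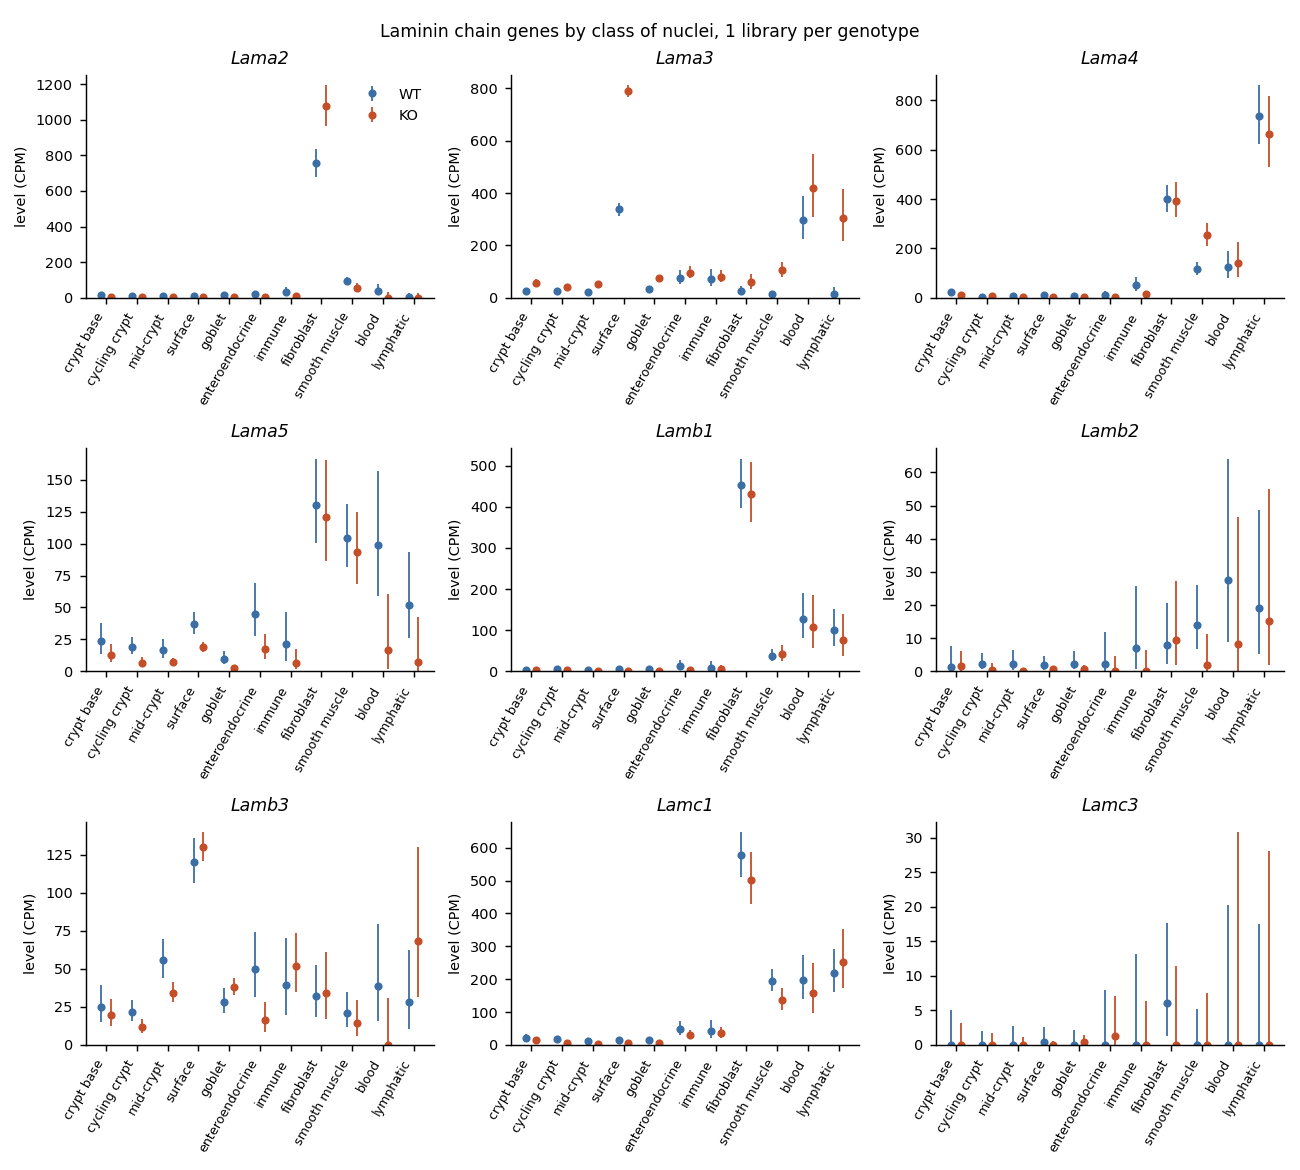
Level of each laminin chain gene (CPM, linear axis, its own scale per panel) in 11 classes of nuclei, in the WT (blue) and KO (red) library, with exact 95% Poisson intervals as bars. Lama3 and Lamb3 stand highest in surface enterocyte-like nuclei, Lama2, Lamb1 and Lamc1 in fibroblast-like nuclei, and Lama4 in lymphatic endothelial-like nuclei, in both libraries.

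Lama3 encodes the α3 chain of laminin-332 and lies on the plus strand of chromosome 18, from 12333819 to 12583013 (GRCm38). Its level in surface absorptive enterocyte-like nuclei was 338 CPM in WT (314 to 364, 731 UMIs in 512 nuclei) and 789 CPM in KO (766 to 812, 4649 UMIs in 823 nuclei). The intervals lay far apart, and each library put this class well above the rest of its nuclei, 7.99-fold in WT and 11.5-fold in KO. These nuclei held 60.9% of all Lama3 UMIs of WT and 79.2% of those of KO. A UMI of Lama3 was found in 55.1% of them in WT and 75.9% in KO, at median depths of 3549.5 and 5960 UMIs. With each nucleus thinned to 1000 UMIs the shares were 23.8% (20.2 to 27.8) and 38.4% (35.1 to 41.8), still apart, while immune-like nuclei, which are not a known source of the chain, gave 8.23% and 8.58%.

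Along the crypt axis Lama3 was low until the surface. Crypt base stem-like nuclei had 24.9 CPM in WT and 55.3 CPM in KO, cycling crypt-like nuclei 27.9 and 42.3 CPM, and mid-crypt enterocyte-like nuclei 22.9 and 52.8 CPM. These 3 classes did not exceed immune-like nuclei, which are not a known source of the chain and had 71.7 CPM (43.8 to 111) in WT and 80.7 CPM (59.3 to 107) in KO. The surface class was made of 2 clusters, which differed in level. The cluster led by Slc9a3, Slc37a2 and Tgm3 had 168 CPM in WT (145 to 195) and 313 CPM in KO (293 to 334). The cluster led by Ifit1bl1, Clca4a and Ly6m, in which the carbonic anhydrase gene Car4 and the water channel gene Aqp8 were also among the leading genes, had 499.5 CPM in WT (459 to 543) and 1236 CPM in KO (1197 to 1276). Lama3 therefore stood at its highest in the second cluster in both libraries, where 78.2% of WT and 92.6% of KO nuclei had a UMI of it.

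Lamb3 encodes the β3 chain, which is found only in laminin-332. It stood at 120.3 CPM in WT surface nuclei (106 to 136, 260 UMIs) and 130.2 CPM in KO (121 to 140, 767 UMIs), 3.78-fold and 4.63-fold above all other nuclei. Below the surface it had 55.5 and 34.2 CPM in mid-crypt, 21.9 and 11.7 CPM in cycling and 24.9 and 19.9 CPM in crypt base nuclei of WT and KO. Immune-like nuclei had 39.4 CPM of it in WT (19.7 to 70.5) and 51.5 CPM in KO (34.8 to 73.6), which only the WT mid-crypt value exceeded, with overlapping intervals. Within the surface class its order differed between the libraries. In WT the Slc9a3-led cluster had 168 CPM and the Ifit1bl1-led cluster 74.8 CPM (59.6 to 92.8), whereas in KO the values were 126 CPM (113 to 140) and 134 CPM (121 to 148), with overlapping intervals. The WT decline of Lamb3 from one surface cluster to the other ran against the rise of Lama3 between the same nuclei.

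Against crypt base stem-like nuclei, 2 of the 9 genes were called higher at the surface in both libraries, Lama3 and Lamb3, where 5.58% of all 14393 genes with enough UMIs were called higher. Among genes of the same pathway, the basement membrane gene Tinagl1 was called higher there, the basement membrane proteoglycan gene Hspg2, the collagen receptor gene Itga1 and Utrn were called lower (9.57% of all genes), and the 2 genes of the laminin-332 receptor were not called. Itga6 had 594 and 702 CPM at the crypt base and 413 and 338 CPM at the surface of WT and KO, and Itgb4 had 73.4 and 98.6 CPM at the crypt base against 116 and 132 CPM at the surface. Col17a1, the collagen of the hemidesmosome, had at most 3 UMIs in any of these epithelial classes.

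**Figure D2:**
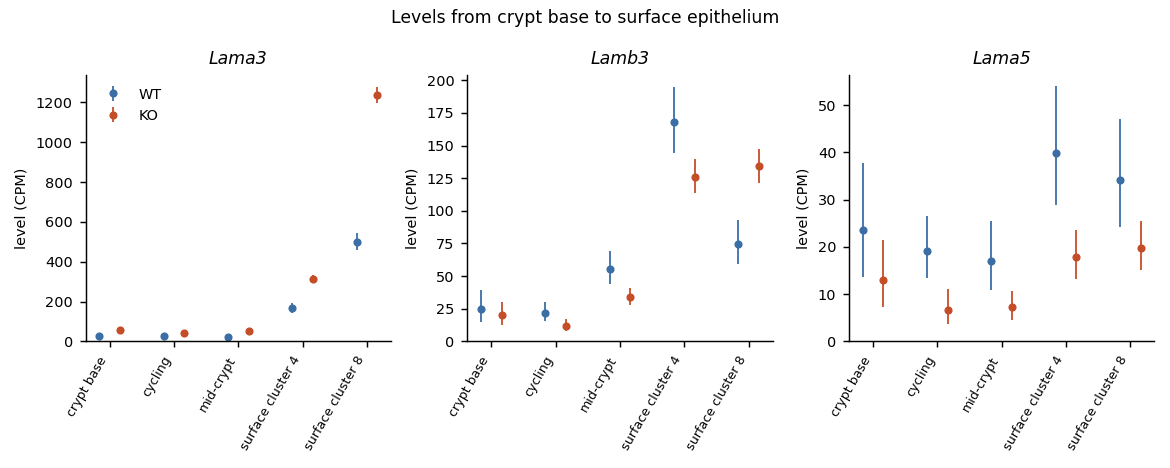
Level (CPM, linear axis, its own scale per panel) of Lama3, Lamb3 and Lama5 in 3 crypt classes and the 2 surface clusters, numbered 4 (led by Slc9a3) and 8 (led by Ifit1bl1), in WT (blue) and KO (red), with exact 95% Poisson intervals. Lama3 rises to 499.5 CPM in WT and 1236 CPM in KO in cluster 8, while Lamb3 is highest in cluster 4 in WT and about level between both surface clusters in KO.

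Lama3 was also found outside the epithelium. In blood endothelial-like nuclei it had 297 CPM in WT (223 to 387, 54 UMIs in 41.8% of 79 nuclei) and 418 CPM in KO (310.2 to 551, 50 UMIs in 57.6% of 33 nuclei). In both libraries the share of nuclei with a UMI was above that in immune-like nuclei, 12.03% and 14.7%, at median depths of 1948 and 2752 UMIs against 1473 and 1784.5. The class was 3.38-fold above all other nuclei in WT and 1.69-fold in KO, where the surface enterocytes raised the rest, and so was not called. The 12 surface absorptive markers summed to 2221 and 2867 CPM in these nuclei against 2821 and 4171 CPM over all nuclei, and their part in the Lama3 level was not tested. Lymphatic endothelial-like nuclei had 14.3 CPM in WT from 3 UMIs and 305 CPM in KO from 40 UMIs, of which 32 were in 1 nucleus. An unnamed cluster of 24 WT and 10 KO nuclei, led by Csmd1, Pcdh15 and Colq, had 389 CPM in WT (259 to 563) and 620.3 CPM in KO (427 to 871).

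Lama2 encodes the α2 chain, best known from the basement membrane of muscle and nerve. Fibroblast-like nuclei had 755 CPM in WT (681 to 836, 376 UMIs in 201 nuclei) and 1075 CPM in KO (964 to 1194, 346 UMIs in 110 nuclei). They held 55.7% of all Lama2 UMIs of WT and 71.2% of those of KO and lay 32.2-fold and 179-fold above all other nuclei. Smooth muscle-like nuclei had 93.1 CPM (72.0 to 118) and 56.8 CPM (37.7 to 82.1), far below the fibroblast-like nuclei of the same library. In blood endothelial-like nuclei 7 UMIs were counted in WT and 0 in KO, where 3 UMIs would be 25.1 CPM. The surface, mid-crypt, cycling and goblet-like classes lay at 8.14 to 14.7 CPM in WT and 2.38 to 6.05 CPM in KO.

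Lamb1 encodes the β1 chain shared by most laminins of the stroma. Its level in fibroblast-like nuclei was 454 CPM in WT (397 to 517, 226 UMIs) and 432 CPM in KO (363 to 509.7, 139 UMIs), 34.3-fold and 95.7-fold above the rest. Blood endothelial-like nuclei followed with 126 and 109 CPM, and lymphatic endothelial-like nuclei with 99.8 and 76.2 CPM, whose intervals overlapped in each library. Smooth muscle-like nuclei had 38.1 and 42.6 CPM. In WT the smooth muscle interval (25.1 to 55.4) lay below both endothelial ones, and in KO (26.4 to 65.1) it overlapped both.

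Lamc1 encodes the γ1 chain, the partner of most α and β chains. It had 576 CPM in WT fibroblast-like nuclei (512 to 647, 287 UMIs) and 503 CPM in KO (429 to 587, 162 UMIs). Lymphatic endothelial-like nuclei had 219 and 251 CPM, blood endothelial-like nuclei 198 and 159 CPM, and smooth muscle-like nuclei 195 and 136 CPM. The 3 classes after the fibroblast-like nuclei overlapped in WT, and in KO the lymphatic interval (173 to 353) began just above the end of the smooth muscle one (105 to 173).

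Lama4 encodes the α4 chain of vascular and mesenchymal laminins. Lymphatic endothelial-like nuclei had 737 CPM in WT (625 to 862, 155 UMIs in 67.5% of 80 nuclei) and 663 CPM in KO (531 to 818, 87 UMIs in 60% of 45 nuclei). Blood endothelial-like nuclei had 126 CPM (80.1 to 190) and 142 CPM (82.8 to 228), so that the lymphatic level was the higher in both libraries. Lama4 was the 1 gene of the 9 called in this comparison, where 0.778% of all genes were called higher in lymphatic endothelial-like nuclei. Fibroblast-like nuclei had 399.7 CPM (346 to 459) and 394 CPM (329 to 469), below the lymphatic and above the blood endothelial nuclei in each library.

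Lama5 encodes the α5 chain. It was more evenly spread than the other stromal chains, at 131 CPM in WT (101 to 166) and 121 CPM in KO (86.1 to 166) in fibroblast-like nuclei and 104 CPM (81.9 to 131) and 93.3 CPM (68.3 to 124) in smooth muscle-like nuclei, with overlapping intervals. Blood endothelial-like nuclei had 98.9 CPM in WT from 18 UMIs and 16.7 CPM in KO from 2 UMIs. Surface enterocyte-like nuclei had 37.0 CPM (29.4 to 46.1) and 18.8 CPM (15.5 to 22.7). Because epithelial nuclei were many, the epithelial classes still held 46.2% of all Lama5 UMIs in WT and 64.3% in KO.

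Lamb2, the gene of the β2 chain, had 50 UMIs in WT and 20 in KO in all nuclei together. Of these, 10 and 1 were in smooth muscle-like, 5 and 1 in blood endothelial-like, 4 and 2 in lymphatic endothelial-like and 4 and 3 in fibroblast-like nuclei. Lymphatic endothelial-like nuclei passed the rule for a higher class with 19.0 and 15.2 CPM, on 4 and 2 UMIs, and passed it in 6 of 11 other settings. Lamc3, the gene of the γ3 chain, had 11 UMIs in WT and 9 in KO. Enteric neuron-like nuclei held 5 and 1 of them, fibroblast-like nuclei 3 and 0 and mesothelial-like nuclei 2 and 4, so no level beyond detection can be given.

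Fibroblast-like nuclei were the class with the most laminin chains. Of the 9 genes, 5 were called higher there than in all other nuclei, Lama2, Lama4, Lama5, Lamb1 and Lamc1, where 7.08% of all genes were called higher. Lama1, outside the 9, was called too, at 235 and 205 CPM. In smooth muscle-like nuclei 3 genes were called, Lama4, Lama5 and Lamc1, against 6.52% of all genes. In blood endothelial-like nuclei they were Lama4, Lamb1 and Lamc1 (3.80% of all genes), in lymphatic endothelial-like nuclei Lama4, Lamb1, Lamb2 and Lamc1 (3.87%), and in surface enterocyte-like nuclei Lama3 and Lamb3 (4.99%). Fibroblast-like nuclei directly exceeded smooth muscle-like nuclei in both libraries for Lama2, Lamb1 and Lamc1, where 2.72% of all genes were called higher.

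Transcripts of the proteins that bind laminins in the matrix and on cells were spread over the same classes. Of 19 basement membrane partner genes, 17 had enough UMIs. Of all genes, 7.08% were called higher in fibroblast-like and 6.52% in smooth muscle-like nuclei. In blood endothelial-like nuclei it was 3.80% and in lymphatic endothelial-like nuclei 3.87%. Fibroblast-like nuclei were higher for 10 of the 17 partner genes, among them the collagen IV genes Col4a1 (409.7 and 401 CPM) and Col4a5 (161 and 180.1 CPM) and Sparc. Smooth muscle-like nuclei were higher for 13, among them Col4a1 (355 and 331 CPM), the perlecan gene Hspg2 (236 and 245 CPM) and Frem2 (236 and 357 CPM). Blood endothelial-like nuclei were higher for 7, among them Col4a1 (599 and 802 CPM) and Col15a1 (379 and 443 CPM), and lymphatic endothelial-like nuclei for 5. The lymphatic nuclei, which had more Lama4 than the blood endothelial ones, had less Col4a1, at 143 and 267 CPM, and less Col4a2, Col15a1 and Sparc, where 0.743% of all genes were called lower.

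Of the 12 laminin receptor genes, smooth muscle-like nuclei were higher for Itga1, Itga7 and Itgb1 and lower for Itga2, Itga6 and Itgb4. Of all genes, 6.52% were called higher there and 5.06% lower. Itga7, which pairs with Itgb1 as the main laminin receptor of muscle, had 60.6 and 54.8 CPM there. The dystrophin complex links the cell cortex to laminin through dystroglycan. Of its 10 genes with enough UMIs, 7 were higher in smooth muscle-like nuclei (6.52% of all genes), including Dmd at 4273 and 4951 CPM. In fibroblast-like nuclei 3 were higher, Sgcb, Sgce and Sntb1 (7.08% of all genes), and Dtna was lower (4.27%). Higher in both blood (3.80% of all genes) and lymphatic endothelial-like nuclei (3.87%) were Utrn and Sntb2. Utrn had 1116 and 1295 CPM in blood and 1497 and 1318 CPM in lymphatic endothelial-like nuclei. Sgcd was lower in the blood (1.72% of all genes) and Dmd in the lymphatic endothelial-like nuclei (1.33%).

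Nuclei of the fibroblast-like and smooth muscle-like classes were divided further into 9 subclusters. Of these, 3 were fibroblast-like and differed in their chains. In the subcluster led by Mmp13, Sox6 and Kctd8, with 67 WT and 28 KO nuclei, Lamb1 had 771 CPM in WT (658 to 899) and 634 CPM in KO (504 to 788). In the subcluster led by Ebf1, Kcnn3 and Il34, with 72 and 50 nuclei, it had 174 CPM (108 to 266) and 277 CPM (183 to 404). Lama4 followed the same order, with 555 and 478 CPM in the Mmp13-led and 257 and 185 CPM in the Ebf1-led nuclei. In the subcluster led by Frmpd4, Edil3 and Lepr, with 60 and 29 nuclei, Lama5 had 13.8 CPM in WT from 2 UMIs and 22.6 CPM in KO from 2 UMIs, against 212 and 219 CPM in the Mmp13-led nuclei.

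These 3 differences, of 27 possible ones between pairs of fibroblast-like subclusters, were the ones called in both libraries. No minimum of UMIs was set for these pairs, and the 27 included those of Lamb2 and Lamc3, which had few UMIs. The share of all genes called between the same subclusters was not computed, so the count has no background. Lama2 was highest in the Frmpd4-led nuclei, at 1017 CPM in WT (859 to 1195) and 1795 CPM in KO (1527 to 2097). It had 677 and 1057 CPM in the Mmp13-led and 664 and 503 CPM in the Ebf1-led nuclei, and these differences did not reach 2-fold in both libraries. Lamc1 was the most even, at 616, 658 and 481 CPM in WT and 542, 649.8 and 318 CPM in KO, in the same order of subclusters.

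Among the smooth muscle-like subclusters, Lama2 stood apart in the nuclei led by Hhip, Sncaip and Trpc6, 19 in WT and 7 in KO, with 457 CPM (266 to 732) and 932 CPM (591 to 1398). In the subclusters led by Adam22 and by Dpp10 it had 34.6 and 41.1 CPM in WT and 0 UMIs in KO. Lama5 in the Dpp10-led nuclei had 199 CPM in WT (138 to 279) against 55.3 CPM (23.9 to 109) in the Adam22-led nuclei, and in KO the intervals of the same subclusters overlapped.

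**Figure D3:**
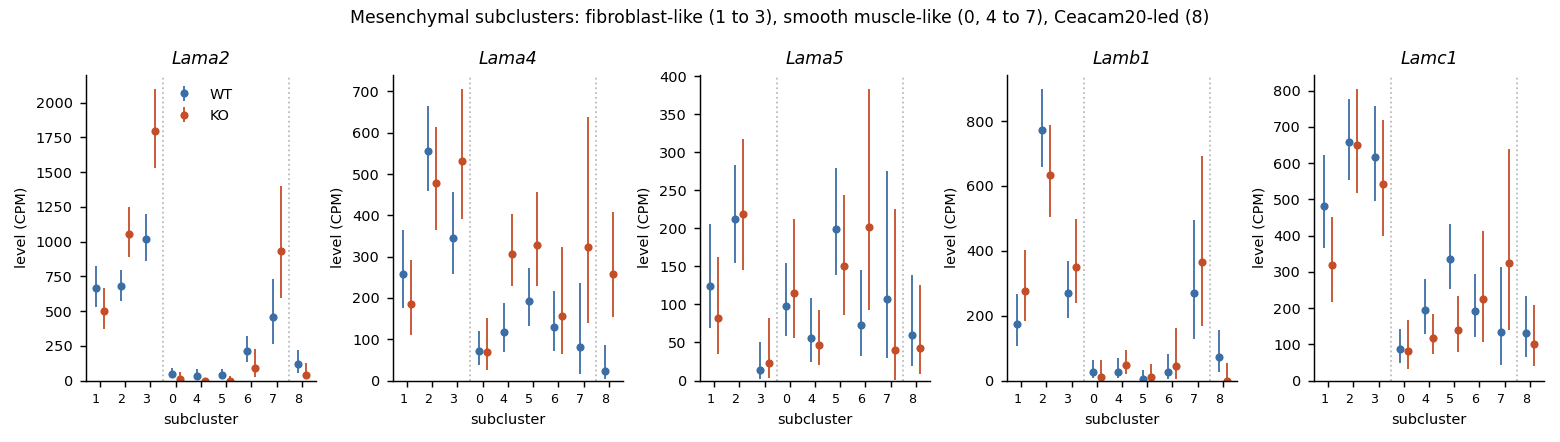
Level (CPM, linear axis, its own scale per panel) of 5 stromal laminin chain genes in 9 mesenchymal subclusters of the WT (blue) and KO (red) library, with exact 95% Poisson intervals. Subclusters 1 to 3 are fibroblast-like (led by Ebf1, Mmp13 and Frmpd4), subclusters 0 and 4 to 7 smooth muscle-like, and subcluster 8, led by Ceacam20, holds 21 nuclei. Lamb1 stands highest in subcluster 2 and Lama2 in subcluster 3.

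Between the libraries, Lama3 was the chain that was higher in KO in several classes, while no stromal chain was called in the fibroblast-like class as a whole. In all, 28 pairs of gene and class had enough UMIs, and 12 were called, 6 higher and 6 lower in KO. Lama3 was called higher in crypt base stem-like, mid-crypt, surface, goblet-like and smooth muscle-like nuclei and Lama4 in smooth muscle-like nuclei. Lower in KO were Lama5 in cycling and surface nuclei, Lamb3 in mid-crypt nuclei, Lamc1 in surface and goblet-like nuclei and Lama2 in goblet-like nuclei. The share of all genes called in either direction by the same rule was 14.2% in crypt base stem-like, 11.9% in cycling, 11.2% in mid-crypt, 16.8% in surface, 13.2% in goblet-like, 6.62% in fibroblast-like, 8.96% in smooth muscle-like, 7.03% in blood endothelial-like and 8.56% in lymphatic endothelial-like nuclei.

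In surface nuclei 3 of 4 genes with enough UMIs were called, 1 higher and 2 lower, where 6.83% of all genes were called higher and 9.99% lower. The log2 ratio of KO over WT of Lama3 was 1.22 (1.11 to 1.34), or 2.33-fold, and it was 0.90 (0.66 to 1.14) in the Slc9a3-led and 1.31 (1.18 to 1.44) in the Ifit1bl1-led cluster. It was called under each of the 16 other settings tried, between 0.90 and 1.37. Of these, dropping the filter on low counts, a 2-fold limit and leaving out the Ceacam20-led mesenchymal nuclei could not move the ratio. The 12 surface absorptive markers summed to 8016 CPM in WT and 9620.2 CPM in KO in surface nuclei. Lamb3, from the same laminin, had a log2 ratio of 0.11 (-0.09 to 0.32) and was not called. Its ratio had opposite signs in the 2 surface clusters, -0.42 (-0.68 to -0.15) in the Slc9a3-led and 0.84 (0.50 to 1.20) in the Ifit1bl1-led cluster. In the Ifit1bl1-led cluster the Lamb3 value met the rule for a call, higher in KO like Lama3. In the Slc9a3-led cluster it was under the 1.5-fold limit. The share of all genes that differed in these clusters was not computed. In the sum of the surface class, the transcript of the α chain was thus called different between the libraries. That of the β chain was not called in the sum, in which the 2 clusters went opposite ways.

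Lama5 had a log2 ratio of -0.98 (-1.40 to -0.54) in surface nuclei and -1.50 (-2.48 to -0.59) in cycling nuclei. Lamc1 had -1.82 (-2.60 to -1.06) in surface nuclei, from 35 UMIs in WT and 27 in KO. Of the other settings, Lama5 was called in 11 of 16 in surface nuclei (-1.52 to -0.69) and in 10 of 14 in cycling nuclei, and Lamc1 in surface nuclei in 7 of 16 (-4.39 to -0.90). In these surface nuclei the 10 fibroblast markers summed to 69.9 and 27.8 CPM in WT and KO, against 318 and 119 CPM over all nuclei, the 10 smooth muscle markers to 390 and 281 CPM, and the 7 lymphatic markers to 31.0 and 11.2 CPM, each with all markers detected in both libraries. The part of these transcripts in the lower Lamc1 and Lama5 was not tested. In goblet-like nuclei the log2 ratio was -1.28 (-2.10 to -0.45) for Lama2 and -1.14 (-1.94 to -0.32) for Lamc1, beside fibroblast markers at 79.4 and 29.0 CPM. Lama2 was called there in 10 of 14 other settings. Lamc1 was called in 9 of 14, and with the lowest level of any class subtracted in each library its direction turned, to 0.24.

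Lama3 was higher in KO by a log2 ratio of 1.15 (0.38 to 1.99) in crypt base stem-like, 1.20 (0.65 to 1.80) in mid-crypt and 1.16 (0.76 to 1.58) in goblet-like nuclei. Over all nuclei it had 90.6 and 249 CPM, a log2 ratio of 1.46, and with the lowest level of any class subtracted in each library none of these 3 remained called, at 0.27, 0.25 and 0.77. They were called in 6 of 11, 9 of 13 and 12 of 14 other settings. Like the crypt classes, goblet-like nuclei as a whole did not exceed immune-like nuclei in Lama3 in either library. The goblet-like values came mainly from the cluster led by Clca1, Fer1l6 and Fcgbp, with 49.5 CPM in WT (34.9 to 68.2) and 124 CPM in KO (108 to 141). In that cluster Lamb3 had 32.1 CPM in WT (20.6 to 47.8) and 62.9 CPM in KO (52.1 to 75.3). The share of all genes that differed in this 1 cluster was not computed. Set beside the immune-like levels given above, both WT values were lower and both KO values higher, with overlapping intervals except for Lama3 in KO. Lamb3 was lower in KO mid-crypt nuclei by a log2 ratio of -0.70 (-1.13 to -0.26), and was called in 7 of 13 other settings (-1.68 to -0.43).

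In fibroblast-like nuclei 0 of 5 genes were called. The median log2 ratio of the 5 was -0.07, against 0.08 for all 3613 genes with enough UMIs. Lama2 had the ratio farthest from 0, 0.51 (0.29 to 0.72) or 1.42-fold, under the 1.5-fold limit although the intervals did not overlap. The other 4 lay between -0.20 and -0.02 with intervals that included 0, which leave room for differences of up to -0.72 and 0.49 for Lama5. In the subclusters Lama2 was 0.82 (0.49 to 1.15) in the Frmpd4-led, 0.64 (0.29 to 0.99) in the Mmp13-led and -0.40 (-0.94 to 0.13) in the Ebf1-led nuclei. The values of the Frmpd4-led nuclei (1.77-fold) and the Mmp13-led nuclei (1.56-fold) met the rule for a call, where 3.94% and 5.75% of all genes were called higher in KO. The KO fibroblast-like nuclei were fewer, 110 against 201, and a different make-up of the class and a different level per nucleus cannot be told apart in the class sum.

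In smooth muscle-like nuclei 2 of 5 genes were called, both higher in KO, where 5.76% of all genes were called higher. Lama4 had 116 CPM in WT (92.0 to 144, 82 UMIs) and 254 CPM in KO (211 to 302, 125 UMIs), a log2 ratio of 1.13 (0.72 to 1.55). It was found in 20.6% of WT and 35.0% of KO nuclei, at median depths of 1907 and 2398 UMIs. With each nucleus thinned to 1000 UMIs the shares were 10.3% (7.11 to 14.3) and 14.8% (9.29 to 21.9), with overlapping intervals. Lama4 was called in 13 of 14 other settings, with values of 0.57 to 1.41, the exception being nuclei thinned to 1000 UMIs. Of its UMIs in the class, 1 in WT and 17 in KO were in the Ceacam20-led subcluster. The 10 smooth muscle markers of the class summed to 14967 CPM in WT and 24400.3 CPM in KO, and their part in the Lama4 difference was not tested. The difference was largest, among subclusters with at least 20 nuclei in each library, in the Adam22-led nuclei, with 118 and 307 CPM and a log2 ratio of 1.39 (0.57 to 2.27). In the subcluster led by Kit and Tmco4 it was 70.5 and 69.2 CPM, a log2 ratio of -0.03 (-1.71 to 1.47). Lamc1 had a log2 ratio of -0.52 (-0.96 to -0.09) and Lama2 of -0.71 (-1.41 to -0.05) in the same nuclei, and neither was called. Without the nucleus that had the most UMIs of it, Lama2 had -1.27 and was called lower in KO.

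Lama3 in smooth muscle-like nuclei had 14.1 CPM in WT (6.76 to 25.9, 10 UMIs) and 105 CPM in KO (78.8 to 138, 52 UMIs), a log2 ratio of 2.90 (1.91 to 4.04). Of the 52 UMIs, 20 were in 7 nuclei of the subcluster led by the surface enterocyte gene Ceacam20, whose nuclei had a median of 6424 UMIs in WT and 7349 in KO, and 15 in 55 nuclei of the Kit-led subcluster. No doublet caller was run, and whether the deep Ceacam20-led nuclei were doublets of smooth muscle and surface enterocyte nuclei was not tested. Without the Ceacam20-led nuclei the log2 ratio was 2.60, and fewer than 50 UMIs were left, so that it was no longer called. The 12 surface absorptive markers summed to 1345 CPM in WT and 1842 CPM in KO in the smooth muscle-like class, all 12 detected in both, and their part in the Lama3 difference was not tested.

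In the endothelial classes 0 of 2 genes were called in each. Lama3 and Lamc1 in blood endothelial-like nuclei had log2 ratios of 0.49 (-0.09 to 1.08) and -0.32 (-1.20 to 0.52). Lama4 and Lamc1 in lymphatic endothelial-like nuclei had -0.15 (-0.55 to 0.24) and 0.20 (-0.49 to 0.88). The intervals were wide, since KO had 33 blood and 45 lymphatic endothelial-like nuclei, and small differences were not detectable there at this depth.

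**Figure D4:**
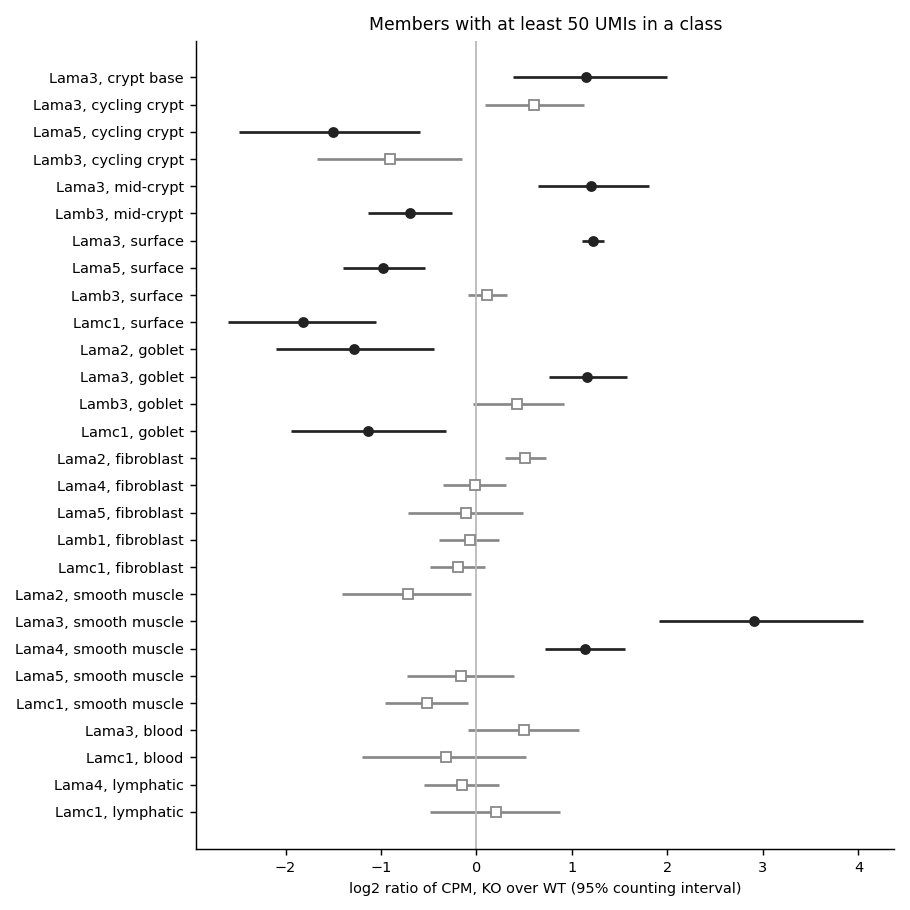
Log2 ratio of CPM, KO over WT, with its 95% counting interval, for the 28 pairs of laminin chain gene and class with at least 50 UMIs. Filled circles mark the 12 called pairs and open squares the others; Lama3 is on the positive side in each class shown, from 0.49 to 2.90.

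Summed over all nuclei the picture was another one. Of 8 genes with enough UMIs, Lama3 was called higher in KO and 6 were called lower, Lama2, Lama4, Lama5, Lamb1, Lamb2 and Lamc1, where 26.0% of all genes were called, 11.6% higher and 14.4% lower. The median log2 ratio of the 8 was -1.33, against -0.01 for all genes. Lama2 went from 50.9 to 20.6 CPM and Lamc1 from 59.9 to 20.3 CPM, while neither was called in fibroblast-like nuclei, their leading class. Of the genes that act with laminins, 13 of 17 basement membrane partners and 7 of 10 dystrophin complex genes were called lower over all nuclei, and 1 of 12 laminin receptors, Bcam. The KO library had fewer fibroblast-like, smooth muscle-like, blood endothelial-like (1.62 against 0.702% of nuclei) and lymphatic endothelial-like (1.64 against 0.957%) nuclei, and whether this came from the tissue or from nuclei isolation cannot be told apart.

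Within single classes, of the basement membrane partners with enough UMIs, Col4a2 in surface nuclei and Agrn in mid-crypt nuclei were lower in KO, and Frem2 was higher in smooth muscle-like nuclei, with a log2 ratio of 0.60 (0.29 to 0.91). Itga1, the α1 subunit of an integrin that binds collagen IV and laminin, was higher in smooth muscle-like nuclei, with 743 and 1217 CPM, a log2 ratio of 0.71 (0.54 to 0.88). It was also higher in lymphatic endothelial-like nuclei (109 and 289.5 CPM, log2 ratio 1.41) and in cycling crypt-like nuclei. Sdc4, a cell surface proteoglycan, was lower in surface (178 and 114 CPM) and goblet-like nuclei (75.3 and 47.6 CPM).

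In epithelial nuclei several dystrophin complex genes were lower in KO. Sgcd was called in crypt base, cycling, mid-crypt, surface and goblet-like nuclei, with 38.0 and 7.30 CPM at the surface, and Dmd and Sntb2 in crypt base and surface nuclei, with Dmd at 97.2 and 42.6 CPM at the surface. The 10 smooth muscle markers, given above for surface nuclei, were lower in KO there too. They were also lower in crypt base (604 and 453 CPM) and mid-crypt nuclei (373 and 269 CPM). In goblet-like nuclei they were not, at 3301 and 3506 CPM in WT and KO. The part of these markers was not tested. In smooth muscle-like nuclei neither Sgcd nor Dmd was called. Of the hemidesmosome genes Dst was called, higher in KO crypt base nuclei at 173 and 286 CPM. No gene of these lists was called in fibroblast-like or blood endothelial-like nuclei.

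The genes whose levels ran most like each chain were sought over 24 points, 12 classes in each of the 2 libraries, by Pearson's r of log2(CPM + 10) among 10971 genes. The classes were those of at least 50 nuclei in each library, so both endothelial classes were left out. Lymphatic endothelial-like nuclei, where Lama4 was highest, therefore did not enter. The points share libraries and classes, so r is a description. Lama2 and Lamb1 ran together at an r of 0.98, and both had Col27a1, a fibrillar collagen, among their nearest 3 genes at 0.98. The others were Chsy3 and Csgalnact1, enzymes of chondroitin sulfate synthesis, for Lama2 and Adamts12 and Scube1 for Lamb1. Among the genes nearest to Lama4 were Col3a1 (0.98) and Prickle1 (0.97). Lamc1 was nearest to Cyp7b1 (0.98), Lhfp (0.97) and Cped1 (0.97), and Lama5 to Fign (0.94), Pde10a (0.93) and Zfpm2 (0.93).

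Lama3 was nearest to Slc15a1, a peptide transporter gene of enterocytes, at 0.90, then to 4930539E08Rik and Clca4b, both at 0.89. Lamb3 was nearest to Aspa (0.88), Areg (0.86), which encodes an epidermal growth factor receptor ligand, and Neu1 (0.86). The 2 epithelial chains ran with each other at 0.69, lower than the values among the stromal chains Lama2, Lama4, Lamb1 and Lamc1, which were 0.91 to 0.98. Lama5, the remaining stromal chain, ran with these at 0.83 to 0.91. Lama2 and Lama3 ran apart, at -0.25.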

How the data were processed

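Nuclei were isolated from frozen colon and sequenced with the 10x Genomics 3′ v3.1 chemistry. The authors' deposited matrices hold raw UMI counts per gene and barcode, made with Cell Ranger 7.0.1 (as the submitters' processing notes list it) on mm10. Whether intronic reads were counted is not given in the sources used here. The barcodes deposited are as many as the nuclei the study analysed, 4896 in WT and 4772 in KO.

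Nuclei with 400 to 5000 detected genes and at most 10% mitochondrial UMIs were kept, leaving 13259430 UMIs in WT and 23605502 in KO. The libraries were integrated and clustered with Seurat 5.3.0 in R 4.3.3 (2000 variable genes without any gene described, 30 components, resolution 1, seed 1), which gave 24 clusters. A cluster took the class whose markers had the highest mean log2 ratio over other nuclei (10 CPM added), with at least 3 markers at a log2 ratio of 1 and in 10% of its nuclei and at least 1 marker among its top 10 genes. The naming limits were chosen with the data in view, and 4 clusters stayed unnamed. No doublet caller was run and free RNA was not removed; instead results were recomputed without deep nuclei and with the lowest class level subtracted. UMIs were summed per class and library with Python 3.11.15, numpy 2.4.6, pandas 2.3.3 and scipy 1.17.1, and intervals are exact Poisson, conditional binomial for ratios and Clopper-Pearson for shares. Calling steps were tested on simulated data.

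The genes, lists and classes were chosen with earlier results of these data known. Of the other lists, each gene called was eligible to be named, at most 5 per list and comparison by size of the ratio, with the 3 nearest genes by r for each chain with at least 200 UMIs. Alternatives were other filters, clusterings, thinning to 1000 UMIs, equal weights, TMM factors (edgeR 4.0.16) and other limits. Some genes of the lists and of the nearest genes are not reported here.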

Additional observations from a re-analysis of the deposited data

How the results depend on the processing

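The number of gene and class pairs called between the libraries was 12 and was 9 to 13 under most alternatives, including TMM factors, no integration and other resolutions. It was 1 with nuclei thinned to 1000 UMIs, the pair that remained being Lama3 in surface nuclei, 4 with the lowest class level subtracted, and 20 without the filter on low counts. The subtraction also turned Lamc1 in goblet-like nuclei from -1.14 to 0.24 on the log2 scale; the cause was not tested. Called differences among fibroblast-like subclusters went from 3 to 0 after thinning, which leaves fewer UMIs. The count of chains higher in a class (17; 12 to 18), of chains with the same leading class (7; 6 to 8) and of chains higher at the surface than at the crypt base (2) stayed within 1.5 times under each alternative that gave a value; without integration, at resolution 0.5 and with all deposited barcodes no crypt base stem-like class was found. Of the single values, 665 stayed within their interval, 100 moved out of it, and 1 called value, that of Lamc1, turned. Part of the 665 could not move. Ratios between the libraries are the same by construction without the filter on low counts and under a 2-fold limit. Those of the other classes also stay the same when the Ceacam20-led mesenchymal nuclei are left out. Values without a call that crossed 0 under some alternative were those of Lamb3 in surface, of Lama4, Lama5, Lamb1 and Lamc1 in fibroblast-like, of Lama4 in lymphatic and of Lamc1 in blood endothelial-like nuclei. Lama2 in fibroblast-like nuclei passed the limit in 2 of 14 alternatives, Lama3 in smooth muscle-like nuclei in 10 of 13 and Lamb3 in surface nuclei in 3 of 16. No paired analysis was possible because each genotype had 1 library. Counting intervals leave out the spread between animals.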
